A study of Mus musculus with 64 samples.

Results

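Clone E, clone H and clone V are clonal lines of murine pancreatic tumour cells, and the data compared here are their mono-culture transcriptomes, 4 libraries a clone, 12 of the 64 libraries in the series. Members were picked from the sample labels, which name clone and culture, and a gene was counted only when clone E differed in the same direction from both H and V. All 3 clones came from a tumour of a single KPC mouse, a model in which Pdx1-Cre, expressed in pancreatic cells, activates mutant alleles that include one of Trp53, on a strain background labelled C57BL/6 mixed, and the study assigned all 3 to its metabolic group 1. The rest of the series comprised clones K, M, N and T, which the study placed in its group 2, the line KPC1, and a second set of libraries for each line from tumour cells sorted by GFP after 48 h with fibroblasts. Each line is 1 clone, so the 4 libraries repeat that clone and not group 1, and p-values measure the spread between libraries, which may be technical. Since the same 4 libraries of clone E stand in both contrasts, the difference from H and that from V are given side by side and were not treated as separate evidence.

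Pancreatic ductal tumour cells occupy a range of states between epithelial cells, which hold together through claudins, keratins and E-cadherin, and mesenchymal cells, which secrete matrix and the proteases that remodel it. Endoderm transcription factors such as Pdx1, Hnf4a and Cdx2 direct the identity of pancreas, liver and gut. Clones grown from one tumour keep the founder mutations yet may differ in state, in growth and in chromosome content.

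Total counts ran from 12994330 to 21333683 a library, with a median of 16088867, and mitochondrially encoded genes took 2.56% to 6.00% of them. Each of the 12 libraries correlated best with a library of its own clone. The lowest Pearson r between libraries of 1 clone was 0.98, the highest between a library of E and one of H or V was 0.86, and the highest between H and V was 0.93, across genes on the log2 scale. Among ductal epithelium markers the 12 libraries held Krt8, Krt18 and Krt19, and the summed level of the 9 markers was 2966 to 3339 CPM (read counts scaled to a common library size) in E, 3041 to 3331 CPM in H and 2403 to 2798 CPM in V. Epcam stayed under 1 CPM in every one of the 12 libraries. Few markers of other cell types passed the filter to be tested. The 2 endothelial markers tested were lower in E (sums of 0.37 to 0.86 CPM in E and up to 12.4 CPM in V). Of 2 macrophage markers 1 was higher, and the macrophage markers summed to 56.6 to 67.1 CPM in E, 71.7 to 96.9 in H and 45.8 to 50.8 in V. Of 2 acinar markers 1 was higher and 1 lower, and the 1 endocrine marker tested was lower. T and B cell markers summed to at most 0.19 CPM, and 5 of those 7 genes had no read.

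Clone E differed from clone H in 8560 of 12755 genes tested (67.1%) and from clone V in 8669 (68.0%) at an adjusted p under 0.1 in edgeR's quasi-likelihood test. H and V differed from each other in 6815 genes (53.4%). In 6049 genes (47.4%) clone E departed in the same direction from both, with 3048 higher in E (23.9%) and 3001 lower (23.5%). A further 554 genes (4.34%) lay between the other two clones, higher than one and lower than the other. By at least 2-fold against both, 1837 genes (14.4%) differed, of which 822 were higher (6.44%) and 1015 lower (7.96%). At log2 differences of 4 or more against both, 131 genes were higher in E and 229 were lower. The 4 libraries of E lay above all 8 of H and V for 2301 genes (18%) and below all 8 for 2339 (18.3%). The median difference over all genes tested was 0.0084 from H and -0.0038 from V on the log2 scale.

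**Figure D1:**
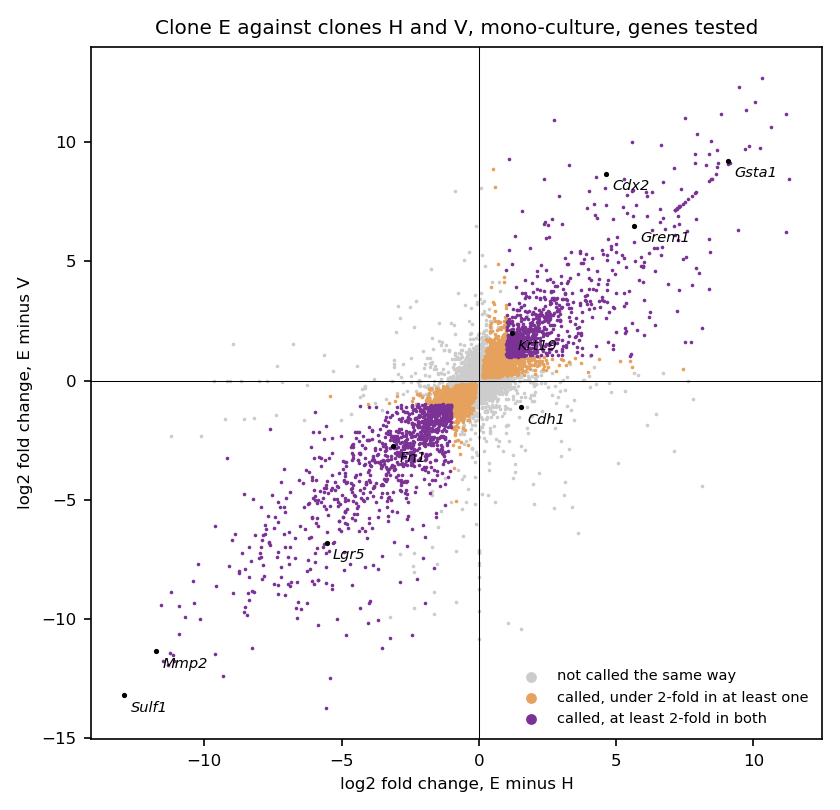
Each point is 1 of the 12755 genes tested, with the log2 fold change of clone E minus clone H on the horizontal axis and clone E minus clone V on the vertical axis, and colours give the call. The libraries of E enter both axes, and Cdh1 sits off the diagonal because it was higher than in H and lower than in V.

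The 12 largest differences on the higher side were genes expressed in clone E and near 0 in H and V, of varied function. Gsta1, a glutathione S-transferase, was at 140, 135, 86.4 and 130 CPM in the 4 libraries of E, at 0.188, 0.495, 0.268 and 0 CPM in H, and at 0, 0.509, 0.0627 and 0.129 CPM in V. The groups did not overlap, and the log2 difference was 9.06 ± 0.36 (SE) from H and 9.23 ± 0.36 from V. Cyp3a13, a cytochrome P450, was at 36.2, 37.1, 49.98 and 32.1 CPM in E, with 3 reads over the 4 libraries of H and none over those of V against 2738 in E. The ratio to H was 867 (95% exact interval 296 to 4207, counting error only), and E was at least 868-fold higher than V, computed against a floor of 3 counts over the group. Tmigd1, a membrane protein of the immunoglobulin superfamily, was at 45.8, 45.9, 36.8 and 58.9 CPM in E and at or under 0.0682 CPM in H and V. Iigp1, an interferon-inducible GTPase, had 1175 reads in E and none in H or V, at least 372-fold and 373-fold higher, and spread in E from 8.73 to 24.8 CPM. Among the others of the 12 largest were C4bp, a complement regulator (12.1 ± 4.40 CPM, SD), the cytokine Il7 (6.99 CPM), Azgp1 (6.28 CPM), Reps2 (17.8 CPM), the cyclic GMP phosphodiesterase Pde9a (29.7 CPM), Sh3rf2 (48.9 CPM) and Ntng1 (18.9 CPM), each at or under 0.110 CPM in H and in V.

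The 12 largest differences on the lower side were genes expressed in both H and V and near 0 in E. Mmp2, the gelatinase that degrades basement membrane collagen, was at 70.9, 88.3, 72.0 and 71.5 CPM in H and 61.5, 64.9, 48.2 and 55.9 CPM in V, and 1 read was counted in the 4 libraries of E together. The ratio of H to E was 4971 (95% exact interval 892 to 196367) and that of V to E 4007 (719 to 158315). Sulf1, an extracellular heparan sulphatase, had no read in E against 3652 in H and 4719 in V, so E was at least 1281-fold and 1654-fold lower. Inhbb, the beta subunit of activin B, was at 40.7 to 57.8 CPM in H and 64.4 to 84.8 CPM in V, and had 1 read in E. Flrt2, an adhesion and axon guidance receptor, was at 181 ± 6.05 CPM (SD) in H, 104 ± 11.6 in V and 0, 0.521, 0 and 0 CPM in E. Basp1, a membrane-associated signalling protein, stood at 107 ± 9.78 CPM in H, 389 ± 11.3 in V and 0.145 ± 0.166 in E. Most or all of the few reads of Flrt2, Inhbb and Basp1 in E came from its replicate 2, the library in which mitochondrially encoded genes took 6.00% of counts; its part in them was not tested. Adamts2, Ncam1, Ust, Wipf1, Ttc12 and Adamtsl3 were also among the 12 largest, at 0.0558 CPM or less in E.

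**Figure D2:**
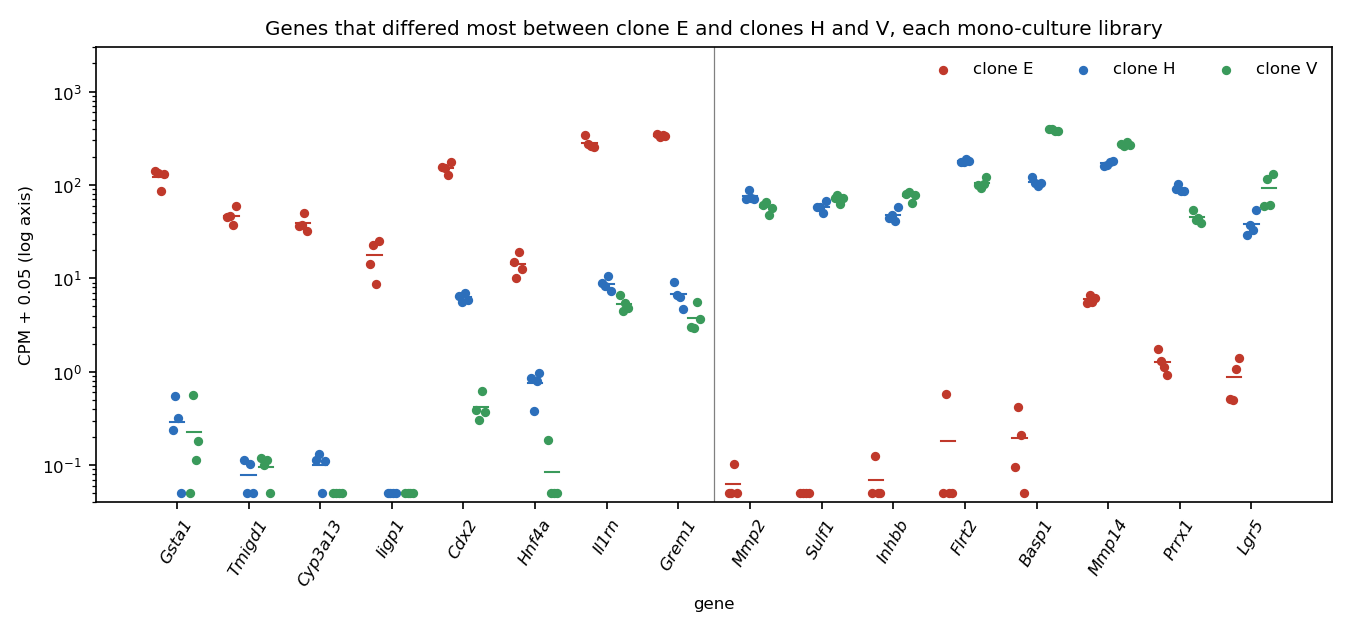
Points are the mono-culture libraries of clones E, H and V and short lines are the means of 4 libraries, on a log axis of CPM + 0.05, so that a library with no read sits at 0.05. For the genes left of the vertical line all libraries of E lie above those of H and V, and for those right of it all lie below.

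Promoter sequence is shown for a pair of genes from each end of this contrast, chosen among the largest differences for a RefSeq start close to the annotated one, with their CpG content, a feature the comparison did not use. The sequences are RefSeq promoters of build GRCm38.p6, 250 bases before to 50 after the start of the transcript, read 5′ to 3′ along the gene's strand, with each CG dinucleotide in capitals. The 2 genes higher in E are Gsta1 (chr9:78230419-78230718, plus strand) and Tmigd1 (chr11:76901909-76902208, plus strand), and the 2 lower in E are Basp1 (chr15:25413715-25414014, minus strand) and Flrt2 (chr12:95691976-95692275, plus strand).
Gsta1: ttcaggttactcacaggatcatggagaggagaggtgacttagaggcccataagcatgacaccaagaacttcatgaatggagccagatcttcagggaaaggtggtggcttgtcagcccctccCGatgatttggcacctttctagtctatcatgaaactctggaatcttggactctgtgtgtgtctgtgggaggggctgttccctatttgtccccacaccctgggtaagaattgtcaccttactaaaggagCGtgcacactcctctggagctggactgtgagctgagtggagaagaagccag
Tmigd1: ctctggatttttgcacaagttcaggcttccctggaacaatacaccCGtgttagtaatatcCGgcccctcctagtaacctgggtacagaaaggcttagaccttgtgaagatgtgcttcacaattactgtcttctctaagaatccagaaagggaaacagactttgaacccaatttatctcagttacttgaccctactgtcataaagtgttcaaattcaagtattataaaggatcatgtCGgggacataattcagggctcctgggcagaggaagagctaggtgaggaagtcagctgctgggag
Basp1: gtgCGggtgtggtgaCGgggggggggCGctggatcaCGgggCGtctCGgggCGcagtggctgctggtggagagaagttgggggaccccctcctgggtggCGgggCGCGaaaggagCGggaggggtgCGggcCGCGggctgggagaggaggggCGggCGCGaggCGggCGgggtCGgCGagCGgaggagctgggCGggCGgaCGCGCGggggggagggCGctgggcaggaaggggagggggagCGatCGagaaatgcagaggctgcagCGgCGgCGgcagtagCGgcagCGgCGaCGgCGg
Flrt2: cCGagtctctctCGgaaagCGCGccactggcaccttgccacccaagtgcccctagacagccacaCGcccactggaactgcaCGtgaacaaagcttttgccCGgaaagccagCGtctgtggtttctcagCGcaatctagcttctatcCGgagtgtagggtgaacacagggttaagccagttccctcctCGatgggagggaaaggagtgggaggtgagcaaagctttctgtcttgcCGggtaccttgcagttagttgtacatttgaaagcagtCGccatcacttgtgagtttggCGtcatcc
The Gsta1 window held 2 CG dinucleotides and the Tmigd1 window 3, which 85.9% and 76.7% of the 32851 promoters in the table equalled or passed. The Basp1 window held 38 and the Flrt2 window 14, which 4.95% and 36.3% equalled or passed. The motif TATAAA, searched along the strand shown, was in the Tmigd1 window and not in the other three. Of other genes higher in E, the promoters of Cyp3a13, Azgp1, C4bp, Lgals4 and Hnf4a held 1 to 4 CG dinucleotides. That of Cdx2, also higher in E, held 18, more than that of Flrt2. Wipf1 and Inhbb, lower in E, held 37 and 23. These are single examples, and whether CpG content differed between the directions was not tested. By symbol, 71.0% of the genes tested had a promoter in the table.

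Matrix and mesenchymal genes had the largest shares lower in clone E among the lists with at least 8 members tested, where 23.5% of all genes were lower. Of 39 mesenchymal genes tested 27 were lower in E (69.2%) and 4 higher, with median log2 differences of -1.19 from H and -1.34 from V, and 17 were lower by at least 2-fold. Mmp14, the membrane protease that activates Mmp2, was at 5.38 to 6.55 CPM in E, 161 to 181 CPM in H and 261 to 286 CPM in V. The mesenchymal homeobox gene Prrx1 was at 1.70, 1.26, 1.07 and 0.866 CPM in E against 85.9 to 102 CPM in H and 38.9 to 53.5 CPM in V. Both separated E from every library of the other clones. Wnt5a, a ligand of non-canonical Wnt signalling, differed by -5.97 and -7.25 and Wnt5b by -5.74 and -5.11. Zeb1, a repressor of epithelial genes, was lower by small amounts, -0.38 ± 0.09 (SE, adjusted p = 0.00114) and -0.24 ± 0.09 (adjusted p = 0.021). Vim, the mesenchymal intermediate filament, had a difference of -0.69 from H and 0.02 from V (adjusted p = 0.865) and was not counted.

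Among collagens, laminins and matrix enzymes 31 of 44 were lower in E (70.5%), 24 of them by at least 2-fold, and 4 were higher. The fibril-forming collagen gene Col11a1 stood at 0.331 CPM in E, 52.4 in H and 55.1 in V, and Col8a1 at 2.37, 155 and 72.2 CPM. Col12a1 had 3 reads in E against 757 in H and 1084 in V, a ratio of 266 (95% exact interval 90.5 to 1291) and 380 (130 to 1845). Fn1, fibronectin, was among the most abundant transcripts of the set at 1184, 1047, 1359 and 839 CPM in E, 8568 to 10888 CPM in H and 6475 to 8713 CPM in V. Its log2 difference was -3.13 ± 0.15 (SE, adjusted p = 3.72e-11) from H and -2.73 ± 0.15 (adjusted p = 1.42e-10) from V. Of 37 cadherin, integrin and other adhesion genes 22 were lower (59.5%) and 6 higher. Itga7, a laminin receptor subunit, differed by -4.62 and -5.78, Mcam by -4.54 and -5.60, and L1cam by -7.25 and -5.30, while the protocadherin Pcdh17 (66.7 CPM in E, 0.186 in H, 1.58 in V) and the intestinal cadherin Cdh17 (9.54, 0.352 and 0.211 CPM) were higher in E.

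Fibroblast markers were low in all mono-culture libraries. The 12 markers summed to 48.4 to 66.3 CPM in E, 115 to 135 CPM in H and 83.6 to 116 CPM in V, 7 of the 12 were under 1 CPM in every library and 3 of these had no read, and 4 of the 5 tested were lower in E. The part of this marker level in the lower matrix genes of E was not tested. In bulk RNA, fewer cells of a type and less RNA per cell cannot be told apart.

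Epithelial genes were split rather than moved together, 8 of 25 higher and 8 lower (32% each, against 23.9% and 23.5% of all genes). Krt19, the ductal keratin, was at 637 to 811 CPM in E, 301 to 340 CPM in H and 175 to 196 CPM in V. Its log2 difference was 1.19 ± 0.09 (SE) and 1.97 ± 0.09. The claudins Cldn2 (65.4 CPM in E, 20.7 in H, 5.89 in V) and Cldn3 (12.8, 0.0788 and 0.0700 CPM), the intestinal lectin Lgals4 (149, 1.37 and 1.35 CPM) and the epithelial regulator Grhl2 (5.41, 0.597 and 0.502 CPM) were higher in E. Cldn6, a claudin of embryonic epithelium, was lower at 21.5 CPM against 200 and 193, and so was the desmosomal plakophilin Pkp1, at 0.346 CPM against 65.6 and 27.2. Cdh1, E-cadherin, did not follow the rule, since E stood at 126 to 155 CPM, between H at 42.7 to 54.5 CPM and V at 292 to 331 CPM.

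Transcription factors of endoderm differed in both directions, with 8 of 21 higher in E (38.1%, against 23.9% of all genes) and 6 lower (28.6%, against 23.5%). Cdx2, the master regulator of intestinal epithelium, was at 157, 152, 126 and 177 CPM in E, 6.45, 5.52, 6.98 and 5.83 CPM in H and 0.254 to 0.565 CPM in V. The 3 clones formed separate levels, with H above V. Hnf4a, a nuclear receptor of liver and gut, was at 10.1 to 19.1 CPM in E, 0.330 to 0.911 CPM in H and had 2 reads in V. Onecut2, of the hepatic and pancreatic Onecut family, differed by 3.87 and 3.36, Klf5 by 2.03 and 1.67, and Pdx1, the pancreatic master factor whose promoter drives Cre in these mice, by 1.39 ± 0.09 and 1.21 ± 0.09 (SE). In the other direction Sox11 had 1 read in E against 480 in H and 1327 in V, the orphan receptor Nr2f1 was at 14.9 CPM against 125 and 141, Gata6 at 1.93 against 8.98 and 22.7, and Meis1 at 6.32 against 21.7 and 15.1.

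Antioxidant and cell cycle genes had the largest shares higher in E among the lists with at least 8 members tested, and the shares of interferon (38.5%), endoderm factor (38.1%), cholesterol (36.7%) and other lists were above that of all genes too. Of 40 antioxidant and glutathione genes tested 26 were higher in E (65.0%, against 23.9% of all genes), 5 were lower, and the median differences were 0.57 and 0.49. Gclc, the catalytic subunit of the rate-limiting enzyme of glutathione synthesis, was at 252, 237, 292 and 283 CPM in E, 36.1 to 51.6 CPM in H and 29.9 to 42.8 CPM in V, a log2 difference of 2.55 ± 0.13 and 2.88 ± 0.13 (SE). Gsta4 reached 961 CPM in E against 56.9 and 51.2, Mgst1 142 CPM against 7.63 and 1.11, and the quinone reductase Nqo1 17.7 CPM against 4.63 and 1.02. Gsta genes are paralogs, some of them near-identical, and how reads were shared among them is not given in the sources used here. Of 33 cell cycle genes 20 were higher (60.6%) and 1 was lower. Ccna2, cyclin A2, was at 138, 106, 74.1 and 98.2 CPM in E, 33.4 to 40.1 CPM in H and 22.4 to 39.98 CPM in V. Mybl2 (1.65 and 2.21), Foxm1 (1.52 and 1.06), Ccne1 (1.60 and 1.46), Mcm5 (1.60 and 1.32) and Mki67 (1.20 and 2.18) had log2 differences of the same sign, as had the inhibitor Cdkn2c (1.09 and 3.21). The member that was lower was Cdkn1a, the p53-responsive inhibitor p21, at 5.57 to 10.4 CPM in E, 20.4 to 31 CPM in H and 32 to 35.5 CPM in V.

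**Figure D3:**
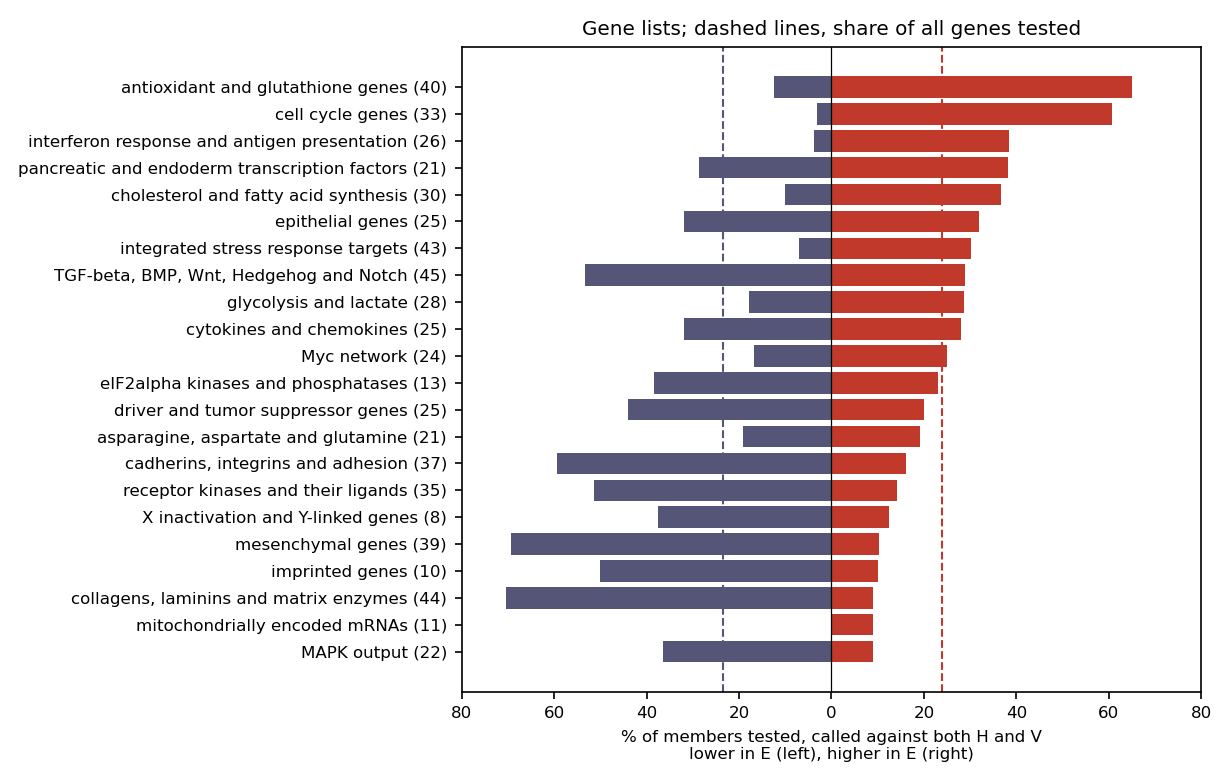
Bars give, for each hand-written list with at least 8 members tested (number in brackets), the percentage of tested members higher in clone E than in both H and V (right) or lower than in both (left). Dashed lines mark the share of all genes tested, 23.9% higher and 23.5% lower, and the longest bars are those of antioxidant (65.0%) and cell cycle genes (60.6%) on the right and of matrix (70.5%) and mesenchymal genes (69.2%) on the left, with several other lists past the same lines.

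Of 25 driver and tumor suppressor genes 11 were lower in clone E (44%, against 23.5% of all genes) and 5 higher (20%, against 23.9%). Trp53, the tumor suppressor p53, differed by -0.43 and -0.42, and Cdkn2a, encoding p16 and p19ARF, by -0.99 and -1.99. Among MAPK output genes, which report ERK signalling, 8 of 22 were lower (36.4%) and 2 higher (9.09%). Etv4 was at 56.4 to 70.4 CPM in E, 143 to 155 in H and 152 to 194 in V; Etv1 (-2.06 and -1.35) and Etv5 (-1.75 and -1.18) differed in the same direction, and Fosl1 (0.84 and 1.20) and Phlda1 (0.66 and 1.24) were higher. Dusp6, the ERK phosphatase, was lower than in H (-0.58, adjusted p = 0.00185) and differed by -0.14 from V (adjusted p = 0.38). Receptor kinases and their ligands were lower in 18 of 35 (51.4%) and higher in 5, with Fgfr1 at 56.2 CPM against 271 and 267, Flt1 at 4.25 against 68.1 and 66.8 and Pdgfra at 0.471 against 13.2 and 13.9. The insulin-like growth factor binding proteins were divided, Igfbp3 (37.2 CPM against 390 and 692) and Igfbp7 (22.4 against 283 and 239) being lower and Igfbp6 (17.5 against 0.830 and 1.52) higher.

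Of 45 developmental signalling genes 24 were lower in E (53.3%, against 23.5% of all genes) and 13 higher (28.9%). Grem1, a secreted antagonist of bone morphogenetic proteins, was at 351, 326, 344 and 332 CPM in E, 4.67 to 9.08 CPM in H and 2.90 to 5.52 CPM in V, a log2 difference of 5.67 ± 0.18 and 6.50 ± 0.19 (SE). The Notch ligand Dll1 was at 29 CPM in E against 0.139 and 0.367. On the Wnt side the receptor Lgr5, a stem cell marker of gut, was at 0.446 to 1.36 CPM in E, 28.9 to 54.3 CPM in H and 59.9 to 132 CPM in V, where the 4 libraries spread over more than a 2-fold range. The ligand Wnt10b (0.170 CPM against 26.2 and 24.5), the receptor Fzd6 (0.0960 against 7.70 and 25.8) and the antagonist Dkk2 (0.0538 against 15.1 and 14.1) were lower too. Cytokines and chemokines were called in 7 of 25 as higher (28%) and 8 as lower (32%), against 23.9% and 23.5% of all genes. Il1rn, the interleukin-1 receptor antagonist, was at 343, 271, 259 and 256 CPM in E and no higher than 10.6 CPM elsewhere in these 12 libraries. Spp1, osteopontin, the most abundant gene of the 2-fold set, was at 912 to 1429 CPM in E, 11761 to 13865 CPM in H and 3654 to 4908 CPM in V. Il34, a ligand of the macrophage receptor Csf1r, and the alarmin Il33 were at 3.31 and 0.990 CPM in E against 32.4 and 24.9 CPM in H and 33.4 and 10.4 CPM in V.

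Interferon and antigen presentation genes were higher in 10 of 26 (38.5%) and lower in 1. Cd274, which encodes PD-L1, was at 17.7, 26.7, 33.4 and 24.9 CPM in E, 2.31 to 3.49 CPM in H and 1.02 to 1.81 CPM in V. Gbp2 (14.0 CPM against 3.61 and 3.37) and the RNA sensor Ifih1 (9.98 against 0.316 and 3.53) were higher and Ifit2 lower (2.39 against 18.8 and 14.1).

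Among genes of the study's own metabolic question, Asns, Atf4, Psph and Shmt2 differed by less than 1 on the log2 scale. Among integrated stress response targets, which are induced by Atf4 when eIF2alpha is phosphorylated, 13 of 43 were higher in E (30.2%, against 23.9% of all genes) and 3 lower (6.98%, against 23.5%). Their median differences were 0.22 from H and 0.54 from V, and 6 members were higher by at least 2-fold and none lower. Asns, asparagine synthetase, was at 195, 141, 178 and 102 CPM in E, 148, 196, 143 and 132 CPM in H and 143, 121, 154 and 55 CPM in V. The groups overlapped and neither difference passed (-0.00 ± 0.29 from H, adjusted p = 0.992; 0.38 ± 0.29 from V, adjusted p = 0.267). Atf4 was higher by 0.34 ± 0.13 (SE, adjusted p = 0.0324) and 0.44 ± 0.13 (adjusted p = 0.00742), with 482 to 566 CPM in E, 382 to 466 in H and 295 to 512 in V, so that libraries of E and V overlapped; with all 32 mono-culture libraries in the fit the call was lost at an equal difference (0.34). Psph and Shmt2, of serine and one-carbon metabolism, were not called, with differences of 0.34 and 0.28 for Psph and of -0.15 and 0.69 for Shmt2. Psph was called with the replicate number as a block, at a smaller difference of 0.28, and without replicate 4 of E, at 0.45. The members with the largest differences were Stc2, a secreted glycoprotein (1.85 and 2.42), the transcription factor Cebpb (1.62 and 1.85), Atf3 (1.33 and 1.71), the lipoprotein receptor Vldlr (1.26 and 1.67) and Slc3a2, the heavy chain of amino acid exchangers (1.21 and 1.61). Atf3 was no longer called without replicate 4 of E, at a smaller difference of 0.67. Eif2ak4, the amino acid sensor GCN2, had differences of -0.21 and -0.10 and was not called. A further list held eIF2alpha kinases, phosphatase subunits, eIF2 and eIF2B subunits and related regulators. Of its 13 genes tested 5 were lower (38.5%, against 23.5% of all genes) and 3 higher (23.1%, against 23.9%). The eIF2B subunit gene Eif2b2 was lower at 33.5 CPM against 104 and 74.5.

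Asparagine, aspartate and glutamine genes were higher in 4 of 21 and lower in 4, a share below that of all genes in each direction; Asrgl1, an asparaginase, had the largest difference (1.27 CPM against 10.3 and 6.56), and the call of Slc1a5 was lost in 13 of the other settings. Of 28 glycolysis and lactate genes 8 were higher (28.6%) and 5 lower (17.9%), shares near those of all genes. The lactate transporter Slc16a1 was at 391 CPM in E against 177 and 171, whereas Ldhb (0.339 against 3.02 and 3.92), Pdk4 (4.02 against 33.6 and 22.6) and Pfkfb3 (7.50 against 29.8 and 20.5) were lower. Of 30 cholesterol and fatty acid synthesis genes 11 were higher (36.7%) and 3 lower, among them Mvk (1.35 and 1.40) and Acss2 (1.46 and 1.92), which make mevalonate phosphate and acetyl-CoA. Mitochondrially encoded mRNAs had median differences of 0.60 from H and 0.17 from V, and mt-Nd1 alone of 11 was called; that call was lost without replicate 2 of E and without replicate 4 of H, at smaller differences of 0.24 and 0.25 (0.39 with all 12 libraries). Of 24 Myc network genes 6 were higher (25%) and 4 lower (16.7%), also near those shares, and Myc itself differed by -0.09 (adjusted p = 0.387) and -0.19 (adjusted p = 0.0753). Imprinted genes were lower in 5 of 10 (50%, against 23.5% of all genes) and higher in 1 (10%, against 23.9%). Peg10 was at 0.944 CPM against 12.5 and 32.1 and Sgce at 4.62 against 18.1 and 30.1, both lower in E. Of 8 X inactivation and Y-linked genes 3 were lower (37.5%) and 1 higher (12.5%), few genes to set against the same shares. The 1 Hox gene tested, Hoxa3, was higher at 1.15 CPM against 0.0827 and 0.0254.

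The genes called were unevenly spread over the genome, in coordinates of GRCm38, the build named mm10 in the submitters' processing notes. On chromosome 12, 225 of 431 genes tested were lower in E (52.2%) and 39 higher, with median differences of -0.44 from H and -0.41 from V. On chromosome 18, 190 of 335 were lower (56.7%) and the medians were -0.47 and -0.45. On chromosome 19, 208 of 428 were higher (48.6%) and the medians were 0.34 and 0.35. On chromosome 5, 327 of 801 were higher (40.8%), and before 130 Mb 282 of 595 (47.4%), with medians of 0.35 and 0.26 there. Chromosomes 12, 18 and 19 had nearly the same shift against both clones, and H and V differed between themselves there by medians of 0.04, 0.04 and 0.02. Chromosome 7 was divided: from 80 Mb to its end 231 of 440 genes were higher in E (52.5%), with medians of 0.43 and 0.46, while before 80 Mb 87 of 479 were higher and the medians were -0.02 and -0.06. Chromosome 12 was also uneven, with medians of -0.50 and -0.49 over 315 genes from 50 Mb on and of -0.14 and -0.11 over 116 before it. The 130, 80 and 50 Mb limits were placed after the values were seen. The contrasts were unlike on chromosome 13, with a median of -0.39 against V and -0.11 against H, and on chromosome 16, with -0.32 against H and 0.02 against V. DNA was not analysed here, and copy number and other causes cannot be told apart in these libraries.

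**Figure D4:**
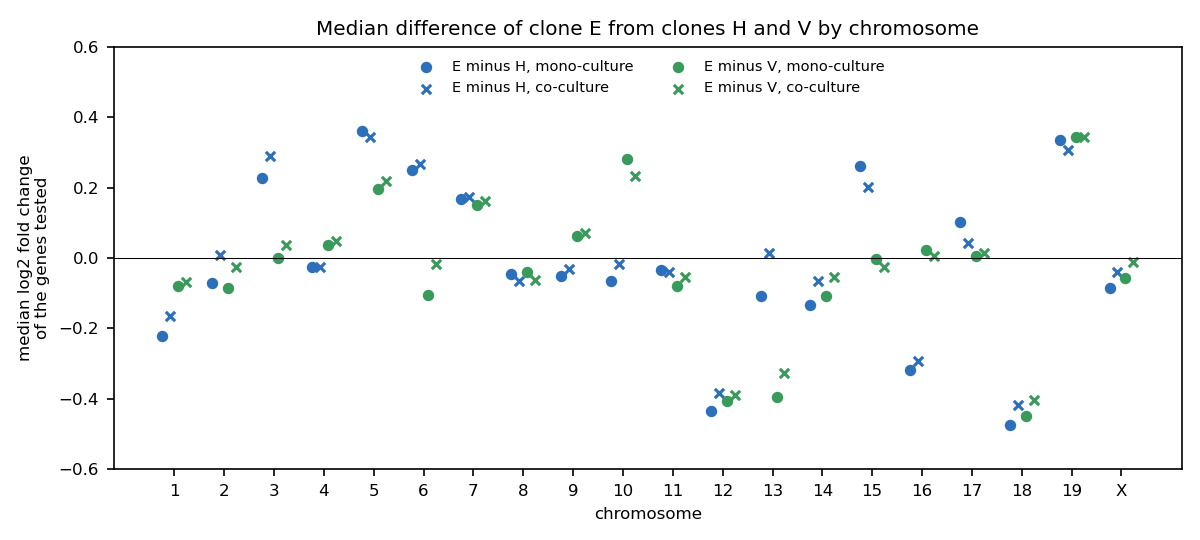
Symbols give the median log2 fold change of the genes tested on each chromosome, for E minus H and E minus V, in mono-culture (circles) and co-culture (crosses). Chromosomes 12 and 18 lie between -0.47 and -0.38 and chromosome 19 between 0.31 and 0.35 in both contrasts and both cultures.

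Against the median of all 8 lines, chromosomes 12 and 18 stood high in H and V. The median departure on chromosome 18 was 0.33 in H and 0.26 in V, -0.09 in E and between -0.15 and 0.06 in the other 5 lines. On chromosome 19 it was -0.24 in H, -0.27 in V and 0.04 in E. Distal chromosome 7 went the other way, at 0.38 in E and between -0.06 and 0.02 in the 7 other lines.

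Neighbouring genes with differences of at least 2-fold formed 11 runs of 4 or more genes tested, 10 of them higher in E. The longest, of 8 genes, lay on chromosome 7 from 45522916 to 45694402 and held Ppp1r15a, Plekha4, Hsd17b14, Bcat2, Rasip1, Mamstr, Fut2 and Sec1. Their levels were unequal, from 1.64 CPM for Rasip1 to 67.2 CPM for Ppp1r15a, the phosphatase subunit that ends the stress response, and Rasip1, Mamstr and Fut2 had no more than 2 reads each in H and in V. The Gsta run on chromosome 9 (78175914 to 78355788) held C920006O11Rik, Gsta4, Gsta1, Gm10639 and Gsta2. The Naip run on chromosome 13 (100144063 to 100378960) comprised Naip2 at 155 CPM against 10.4 and 3.96, Naip6 at 60.03 against 0.187 and 0.0700, Naip5 and Naip3, inflammasome sensors of near-identical sequence. Cyp4a12a, Cyp4a12b and Cyp4b1, fatty acid hydroxylases, stood beside Pdzk1ip1 on chromosome 4, Foxq1, Foxf2 and Foxc1 on chromosome 13, and Rasal1, Oas2, Oas3 and Oas1c on chromosome 5. The run on chromosome 18 held Iigp1, Gm4841 (49.5 CPM in E), BC023105 and 2 further genes. Overlapping and paralogous genes in these runs share sequence, and their separate values are uncertain to that extent.

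The tumour cells sorted from co-culture gave a second set of libraries of the same clones. There 4363 of 12718 genes (34.3%) differed in the same direction from both H and V, 2137 higher (16.8%) and 2226 lower (17.5%). Of the genes higher in mono-culture 1397 of 2905 tested again were higher in co-culture (48.1%) and 66 lower, and of those lower 1513 of 2902 were lower (52.1%) and 23 higher. For differences of at least 2-fold, 513 of 700 higher genes tested again (73.3%) were called the same way. So were 682 of 923 lower genes tested again (73.9%), and 3 in each direction were called the opposite way. The rest of the 822 and 1015 genes did not pass the filter on low counts in co-culture. Krt19 (1.05 and 1.56), Cdx2 (3.39 and 7.90), Il1rn (6.18 and 5.24) and Ccna2 (0.97 and 0.94) were higher again, and antioxidant genes were higher in 18 of 41 and cell cycle genes in 16 of 33. Chromosome medians recurred, at -0.38 and -0.39 for chromosome 12, -0.42 and -0.40 for chromosome 18 and 0.31 and 0.35 for chromosome 19.

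The difference between cultures was itself called, in the same direction against both clones, for 2441 of 13313 genes (18.3%) and by at least 2-fold for 762 (5.72%). Of the 6049 mono-culture calls, 1650 were among them, to be set beside 18.3% of all genes. The same mono-culture libraries chose those calls and enter the interaction test, so the count is not separate evidence about them. Of 49 collagens, laminins and matrix enzymes tested in co-culture 26 were lower in E and 1 higher, against 17.5% and 16.8% of all genes. The gap of several genes narrowed as E gained reads. Mmp2 stood at 5.43 ± 1.94 CPM (SD) in co-cultured E against 67.0 and 32.7, still lower by 3.63 and 2.59 on the log2 scale. The change of its difference was -8.11 ± 0.59 and -8.76 ± 0.57 (SE). Sulf1 (2.75 CPM), Inhbb (1.33 CPM), Basp1 (6.27 CPM), Flrt2 (3.23 CPM) and Prrx1 (12.5 CPM) likewise had reads in co-cultured E and remained lower than in H and V. The gap of Col12a1 did not persist: in the fit of both cultures it differed in co-culture by -0.17 and 0.18. The change of its difference was -7.73 ± 1.24 and -8.52 ± 1.20 (SE). Fibroblast markers moved with these changes. Their sum was 333 to 867 CPM in the co-culture libraries of E, 553 to 1352 in H and 229 to 1318 in V. In mono-culture their sum was 135 CPM at most. Their part in the change was not tested. On the other side Gclc fell to 90.7 CPM in co-cultured E with 57.4 and 53.8 in H and V, Grem1 was at 199 CPM against 39.1 and 56.7, and Iigp1 at 3.56 ± 3.28 CPM in E was no longer called (adjusted p = 0.184 against H). Interferon genes were higher in 1 of the 35 tested in co-culture (against 16.8% of all genes) and lower in 6 (against 17.5%). Their median differences were -1.86 from H and -0.39 from V. In mono-culture 26 of the list were tested. Spp1 reached 5673 CPM in E against 10111 and 5046 and was not called. Of 43 integrated stress response targets 9 were higher in co-culture (against 16.8% of all genes) and 8 lower (against 17.5%). Their median differences were 0.14 from H and -0.32 from V. In the fit of both cultures Atf4 differed in co-culture by 0.25 from H and -0.30 from V, and Asns by 0.16 and -0.40. The interaction test of Atf4 gave an adjusted p of 0.762 against H and 0.00371 against V. Vldlr was lower in E in co-culture (-0.55 and -0.52) and higher in mono-culture.

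Among all 8 lines, clone E was the highest for 331 of the 822 genes higher by at least 2-fold (40.3%) and the lowest for 442 of the 1015 lower (43.5%). On the log2(CPM + 0.5) scale, the group 2 clone T was closer to E than to the mean of H and V for 77.9% of the higher and 76.0% of the lower genes. The shares were 66.9% and 65.0% for M, 64.5% and 63.1% for N, 51.9% and 56.6% for K, and 24.3% and 29.7% for KPC1. Tmigd1 was at 48.8 CPM in T and 0.153 CPM in KPC1. Hnf4a was higher in T (79.6 CPM) and N (53.8 CPM) than in E, and Mmp2 had no read in M, N and T and was at 0.411 CPM in K and 4.22 CPM in KPC1. Basp1 divided the lines, at 97.1 CPM in K and 46.2 CPM in KPC1 and under 0.3 CPM in M, N and T. Cd34, a sialomucin, was at 19.1 to 69.3 CPM in K, M, N, T and KPC1 and under 0.4 CPM in E, H and V, where it was too low to be tested.

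**Figure D5:**
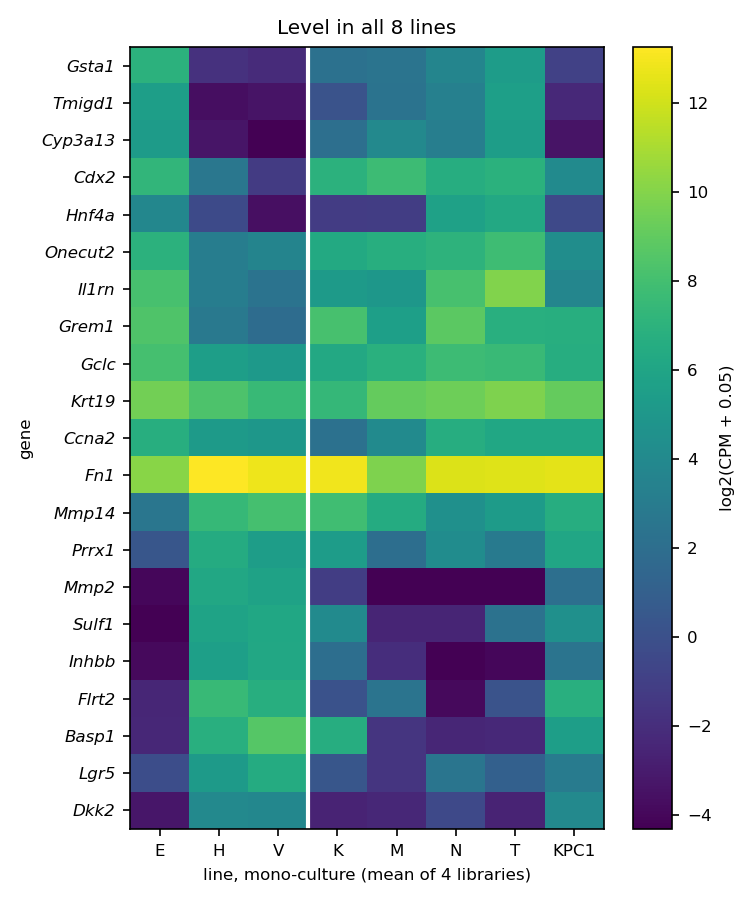
Colour gives the mean log2(CPM + 0.05) of 4 mono-culture libraries for each gene (rows) in each line (columns), with the 3 clones compared left of the white line. Tmigd1 is at a like level in E and T (48.8 CPM in T), and Basp1 is dark in E, M, N and T and light in H, V, K and KPC1.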

How the data were processed

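Poly(A)-selected, strand-specific libraries (Agilent SureSelect, paired-end 76-base reads) were made from 3 clones, 4 each. The authors deposited raw read counts for 39017 genes (featureCounts per the labels, mm10; aligner, versions and strand setting are not given in the sources used here) without normalization. The authors also deposited RPKM values, read counts scaled by gene length and library size, used here for an alternative only. Counts were tested in R 4.3.3 with edgeR 4.0.16: low genes removed with filterByExpr, TMM factors, robust quasi-likelihood fit of the 12 libraries with a mean per clone, Benjamini-Hochberg adjustment over all 12755 genes. A gene was called at adjusted p under 0.1 in both contrasts with the same sign. CPM are TMM-scaled. The standard error was taken as the log2 fold change over the root of the F statistic. Alternatives used DESeq2 1.42.0 and limma 3.58.1.

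Depth was 12994330 to 21333683 counts a library. Intervals and floors cover counting error only. No pair of libraries differed by as little as sampling noise: chi-square per gene was 7.71 to 35.2 over 18 pairs within clones.

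The test was tested on simulated data with 200 genes changed in E among 12755: 55.2% of genes changed by 0.5 on the log2 scale, 88.1% by 1 and 95.5% by 2 were called, and no unchanged gene was. There H and V were drawn from a common mean with the trended dispersion, whereas in the data they differed in 53.4% of genes. The simulation therefore gives no rate of false calls among the 6049 genes.

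Named genes were the 12 largest differences in each direction (called, libraries apart, at least 5 CPM, unnamed transcripts and pseudogenes left out), up to 8 called members of each of 23 lists, a fixed set including Asns and Trp53, the 5 most abundant 2-fold genes and run members; features outside this rule, such as Krt8 and Epcam among the markers, were named for their list. The clones, lists and genes were chosen with earlier results of these data known. Some genes that the rule names are not reported here. Gene positions come from GENCODE M21.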

Additional observations from a re-analysis of the deposited data

Results flagged for a closer look

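Among 87 groups of 4 libraries examined, 7 had a library that stood apart by Dixon's criterion at the 95% level. Chance gives about 1 in 20 for values well above 0. Near 0, a single library with reads meets the criterion by itself, so that rate does not apply there. In clone E the share of mitochondrially encoded counts was 6.00% in replicate 2, and the same library gave the isolated reads of Flrt2 (0.521 CPM) and Inhbb (0.0744 CPM). The single Mmp2 read of E (0.0536 CPM, replicate 3) and the Hnf4a reads of V (0.136 CPM, 1 library) are isolated reads of the same kind. In H, Mmp2 was at 88.3 CPM in replicate 2, and in V Cdh1 was at 331 CPM in replicate 2. None of these CPM values reached the range of the clone on the other side of the comparison.

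A difference between mono-culture and co-culture was called by edgeR's interaction test against both clones, by at least 2-fold, for 12 of the genes shown by library. As the change of E minus H, mono-culture minus co-culture, on the log2 scale, it was -9.11 for Sulf1, -8.11 for Mmp2, -6.65 for Inhbb, -5.21 for Basp1, -5.12 for Flrt2, -3.37 for Prrx1, -2.64 for Spp1 and -1.71 for Mmp14. It was 10.10 for Iigp1, 3.33 for Grem1, 1.90 for Gclc and 1.60 for Cd274.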

How the results depend on the processing

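The count of 6049 genes was 5427 to 6433 under 11 other settings and 5727 to 6064 with 1 library left out, and no gene called in both reversed its direction. E against H gave 7828 to 9211 genes (8161 to 8629 with 1 library left out) and E against V 7889 to 9508 (8300 to 8893). The count of 2-fold differences, 1837, was 1351 when tested against a log2 fold change of 1, 2459 without a filter and 1866 to 1909 with 1 library left out. With limma on log2(RPKM + 1) it was 878, and 1583 with a pseudocount of 0.1 in the same test. Co-culture gave 4347 to 4690 genes (3700 to 4631 with 1 library left out), and the difference between cultures 2588 to 2855 (2014 to 2849). Library numbers up to 43 in the sample titles were taken here as a sheet A, an inference, since the labels name no sheet. Sheet A alone, which is the fit without replicate 4 of H, gave 5953 genes.

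Of 5276 values recomputed for 240 named genes, 65 calls were lost, in 16 genes, 2 were gained, both for Psph (under the replicate block and without replicate 4 of E), and none was reversed. Mest, Nars, Serpine2 and Eif2b1 lost their call in 5 to 9 settings each.

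Same-numbered libraries of the 3 clones had correlated deviations in 5 of 12 pairs above 0.1 (r -0.08 to 0.36). All 3 pairs of replicate 4 were among them (r of 0.14, 0.18 and 0.23). The main fit did not use the number as a block, and whether same-numbered libraries shared a batch was not tested. A replicate block gave 6433 genes, 1840 by 2-fold, 9037 against H, 9135 against V, 4690 in co-culture and 2855 for the difference between cultures. Depth limits genes near 0, where a fold is a bound.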
